A study of Mus musculus with 5 samples.

Results

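The data are positions of CTCF on chromatin, found by immunoprecipitation and sequencing (ChIP-seq) in NIH3T3, an immortalised mouse embryonic fibroblast line. The stretch described here is chromosome 11 before 95 Mb on mm10: a peak belonged to it when the midpoint of its interval lay below that position. It held 1374 of the 22756 peaks listed for the whole series. Cells of every group stably carried CDX2, a homeobox protein of intestine and trophectoderm, under TRE3G control, together with rtTA3G as transactivator and H2B-mCherry. The libraries were 2 CTCF precipitations from cells given doxycycline for 6 h to induce CDX2 (at 500 ng/µL in the labels' unit), 2 CTCF precipitations from cells without doxycycline, and 1 input library from cells without doxycycline. The peaks analysed are 1 list in which the conditions with and without doxycycline had been merged. No interval carries a sample, a height or a score, so induced and uninduced cells could not be compared, and everything below is a description of positions with no test. Read depth is unknown, and a position outside the list may have lacked reads.

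CTCF is a zinc finger protein that binds a long, GC-rich DNA motif. Together with the cohesin ring it marks many borders of chromatin loops and domains, and the orientation of its motif bears on which sites pair. In fibroblasts as in other cells, many CTCF sites lie inside genes and between them, and a smaller part lies at promoters.

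Where a peak fell on a promoter, the bases under it can be shown, and these stretches illustrate what was bound. RefSeq's promoter table for GRCm38.p6, the assembly of mm10, gave 1541 promoters of 1255 genes before 95 Mb, each of 300 bases from 250 before the annotated transcription start to 50 after it. Peaks overlapped 77 of these promoters, from 74 genes, which is 5.00%, beside 3.59% of the 32851 promoters in the whole table. The search used letters of the core of the CTCF motif on both strands: CCA, any 2 letters, AG, any 2 letters, then GGC. Of the 77 promoters with a peak, 14 held these letters (18.2%, exact 95% interval 10.3 to 28.6%), beside 28 of the 1464 promoters before 95 Mb without a peak (1.91%, 1.27 to 2.75%) and 2.43% of all promoters in the table. In 13 of the 14 the match lay wholly inside the peak. Read along the gene's own strand, the letters as written stood in 11 of the 14 promoters and their reverse complement in 3. The promoters of Pik3r5 and Gm32046 face away from each other and share 1 match under 1 peak, counted once in each orientation, so the 14 promoters hold 13 distinct matches. Likewise the 77 promoters lay under 71 distinct peaks. With looser letters, in which the A of CCA may be any letter and which include every match of the first search, 37 of the 77 promoters matched (48.1%), beside 117 of the 1464 without a peak (7.99%) and 8.61% of the whole table. A match is a run of letters and not a proven binding site.

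Protein-coding genes supplied 8 of the 14 matches, each inside its peak. They are given 5′ to 3′ on the gene's strand, with 20 bases on each side and the matching letters in capitals.
Gosr1: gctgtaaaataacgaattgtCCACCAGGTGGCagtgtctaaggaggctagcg
Rsad1: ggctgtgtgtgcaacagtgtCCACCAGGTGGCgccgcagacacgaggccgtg
Lsm11: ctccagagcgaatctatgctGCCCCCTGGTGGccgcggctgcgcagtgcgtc
Pik3r5: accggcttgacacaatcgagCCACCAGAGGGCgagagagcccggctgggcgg
Slc35e4: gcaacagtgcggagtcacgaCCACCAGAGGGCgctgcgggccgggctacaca
C1qbp: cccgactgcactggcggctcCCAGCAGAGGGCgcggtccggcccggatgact
Fxr2: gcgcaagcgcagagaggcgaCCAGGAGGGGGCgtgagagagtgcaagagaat
Trpv2: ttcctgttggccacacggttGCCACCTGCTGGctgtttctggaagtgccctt
Gosr1, a SNARE protein of the Golgi, and Rsad1, a radical SAM protein, share CCACCAGGTGGC, at chr11:76763655-76763706 and chr11:94549268-94549319 on the minus strand. Pik3r5, a regulatory subunit of phosphoinositide 3-kinase (chr11:68432017-68432068, plus strand), and Slc35e4, a member of a transporter family (chr11:3914703-3914754, minus strand), share CCACCAGAGGGC. C1qbp, a protein of the mitochondrial matrix, has the related CCAGCAGAGGGC (chr11:70983067-70983118, minus strand). The RNA-binding protein gene Fxr2 has CCAGGAGGGGGC (chr11:69632791-69632842, plus strand). Lsm11, a subunit of the U7 particle that processes histone transcripts (chr11:45945007-45945058, minus strand), and Trpv2, a cation channel gene (chr11:62575441-62575492, plus strand), carry the reverse complement. The first base of the match lay between positions -166 and -70 relative to the annotated start in all 8.

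The alpha-globin domain gives the clearest pair. Hbq1b and Hbq1a, the theta-globin genes that stand beside the adult alpha-globin genes Hba-a1 and Hba-a2, each had a peak on the promoter. Both promoters hold the looser letters, on the opposite strand and beginning at position -30, in identical form.
Hbq1b: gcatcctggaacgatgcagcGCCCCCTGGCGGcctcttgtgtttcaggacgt
Hbq1a: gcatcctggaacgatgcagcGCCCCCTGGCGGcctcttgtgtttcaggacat
These stretches lie at chr11:32286914-32286965 and chr11:32300019-32300070 on the plus strand. The peaks were 370 bp wide at Hbq1b (chr11:32286729-32287098) and 454 bp at Hbq1a (chr11:32299839-32300292), with midpoints 13.2 kb apart. The 300-base promoters have the same base at 286 positions (95.3%), so short reads from either copy may have been placed at the other, and how the aligner treated them is not given in the sources used here. For context, the whole promoter of Hbq1b (chr11:32286714-32287013, plus strand) is given with the match in capitals.
Hbq1b: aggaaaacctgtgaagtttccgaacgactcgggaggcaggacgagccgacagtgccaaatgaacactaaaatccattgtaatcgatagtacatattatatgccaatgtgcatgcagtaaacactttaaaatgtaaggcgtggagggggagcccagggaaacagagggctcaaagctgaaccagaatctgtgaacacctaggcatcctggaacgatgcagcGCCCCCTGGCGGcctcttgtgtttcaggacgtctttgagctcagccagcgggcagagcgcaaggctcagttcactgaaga

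Peaks around transcription starts were commonest close to the start. Distances were taken to the nearest start, a measure that by itself favours short ones, and no expected distribution was computed. A start in the promoter table lay within 1 kb of the midpoint of 129 of the 1374 peaks (9.39%, exact 95% interval 7.90 to 11.1%), 77 upstream and 52 downstream. From 95 Mb on the share was 7.46% (6.01 to 9.13%), and on the other chromosomes that the promoter table covers it was 8.33% (7.95 to 8.73%), so the intervals of the stretches overlapped. Neighbouring peaks share chromatin and gene neighbourhoods, so every interval here covers counting error only.

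**Figure D1:**
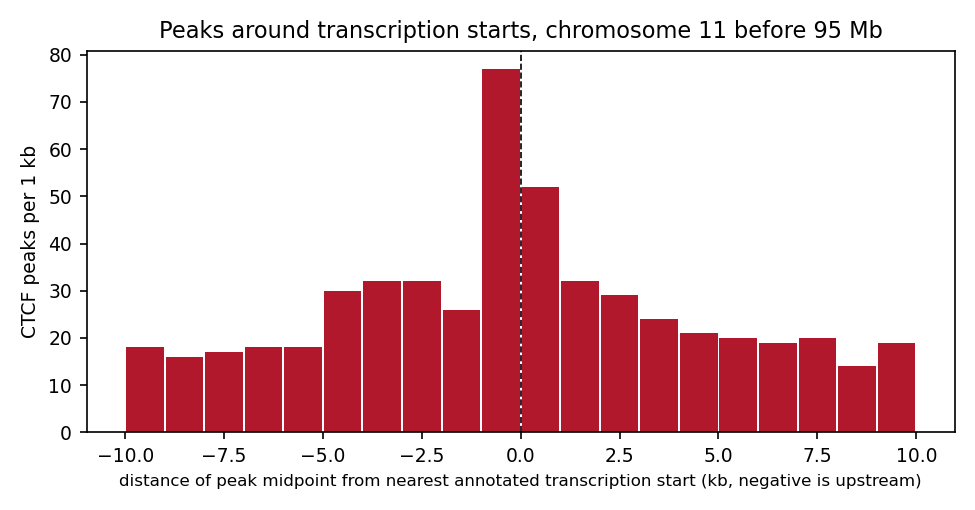
Number of CTCF peaks on chromosome 11 before 95 Mb (vertical axis) by distance of the peak's midpoint from the nearest annotated transcription start in kb (horizontal axis, negative upstream), in 1 kb bins. The bins on each side of the start hold 77 and 52 peaks, and each of the others shown holds 14 to 32.

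Along the chromosome, CTCF peaks stood at 14.9 per Mb before 95 Mb (exact Poisson 95% interval 14.2 to 15.7) over the 92 Mb that begin at 3 Mb. The remaining end of the chromosome, from 95 Mb on, held 1153 peaks at 42.8 per Mb (40.3 to 45.3), and the other chromosomes held 20228 at 7.95 per Mb (7.85 to 8.07). Protein-coding genes were arranged in the same order, with 11.1, 21.7 and 7.93 per Mb, and there were 1.35, 1.97 and 1.00 peaks per gene. The border was placed with the peaks known, so the step across it is a description. The last peak before it (chr11:94978910-94979247) was 338 bp wide, and the first past it (chr11:95001106-95001564) was 459 bp wide.

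The density before 95 Mb was far from even. The first 10 Mb, from 3 to 13 Mb, held 151 peaks. The 30 Mb that followed were thin: 37 peaks from 13 to 23 Mb, 57 from 23 to 33 Mb and 57 from 33 to 43 Mb, or 3.70, 5.70 and 5.70 per Mb. From 43 to 53 Mb there were 157 peaks, from 53 to 63 Mb 209, from 63 to 73 Mb 172, and from 73 to 83 Mb 293, the most of any of these blocks at 29.3 per Mb. The last 12 Mb, from 83 to 95 Mb, held 241 peaks at 20.1 per Mb. Peaks per protein-coding gene varied less, between 0.961 from 63 to 73 Mb and 2.19 from 33 to 43 Mb.

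**Figure D2:**
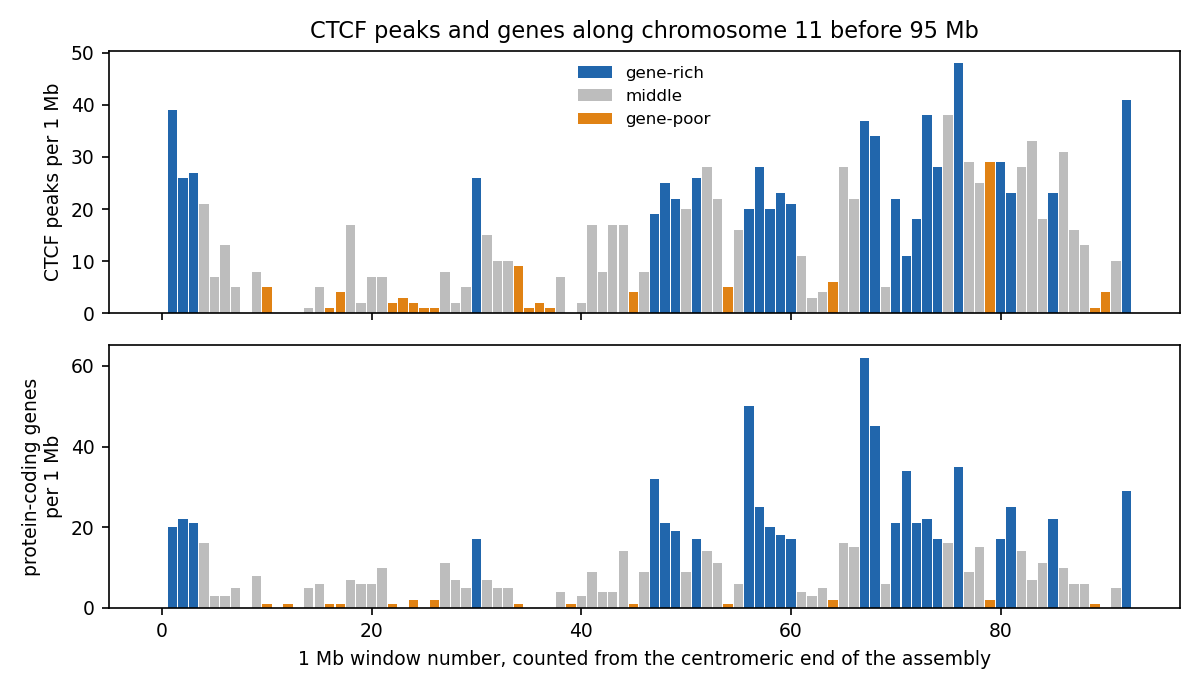
CTCF peaks (upper panel) and protein-coding genes (lower panel) in each of the 92 windows of 1 Mb from 3 to 95 Mb, numbered along the horizontal axis; blue marks gene-rich, grey middle and orange gene-poor windows. Peaks reach 48 in window 76 and are absent from 5 gene-poor windows, and the orange bar of 29 peaks is the window that holds most of Asic2.

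In windows of 1 Mb the number of peaks followed the number of genes. The windows held 0 to 48 peaks with a median of 13 (quartiles 4 and 23.5), and the rank correlation with the number of protein-coding genes was 0.822 over 92 windows, against 0.529 over 26 windows past 95 Mb and 0.685 over 2533 windows of the other chromosomes. These windows are neighbours on shared chromosomes, and the correlations are given without a p. Gene-rich windows, those with 17 to 62 genes, numbered 25 and held 674 peaks, 49.1% of all, at 27.0 per Mb (24.96 to 29.1). Their counts ran from 11 to 48 with a median of 26. Gene-poor windows, those with 0 to 2 genes, numbered 23 and held 81 peaks at 3.52 per Mb (2.80 to 4.38), with counts from 0 to 29 and a median of 2. A single gene-poor window, from 81 to 82 Mb, held 29 of those peaks, most of them in Asic2. Without it the other 22 held 52 peaks, 2.36 per Mb, and none held more than 9. The 44 middle windows held 619 peaks at 14.1 per Mb.

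Windows of like gene count still differed between the stretches. With 8 to 16 genes, the 18 windows before 95 Mb had a median of 21.5 peaks (quartiles 17 and 28), the 9 windows past 95 Mb had 51 (26 and 62), and the 570 windows of the other chromosomes had 11 (6 and 16). With 17 or more genes the medians were 26 in 25 windows before 95 Mb, 50.0 in 13 windows past it and 20.0 in 338 windows elsewhere. With 3 to 7 genes they were 7.5, 14 and 5, over 26, 2 and 792 windows. Before 95 Mb and elsewhere the ranges overlapped widely in each of these classes, since windows of the other chromosomes with 8 to 16 genes ran from 0 to 46 peaks.

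**Figure D3:**
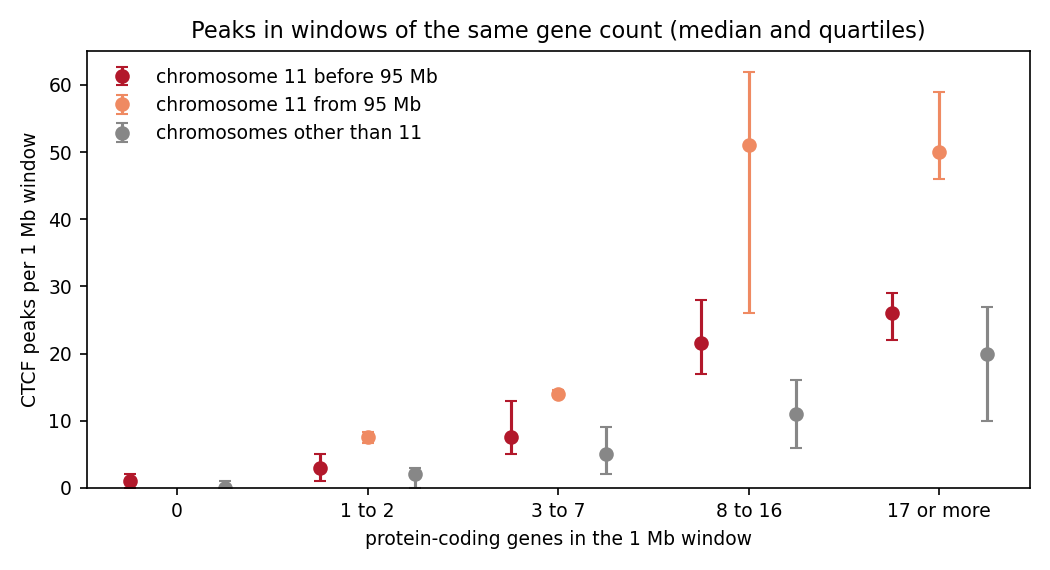
CTCF peaks per 1 Mb window (vertical axis) by the number of protein-coding genes in the window (horizontal axis) for chromosome 11 before 95 Mb (dark red), chromosome 11 from 95 Mb (orange) and the other chromosomes (grey); points are medians and bars run between the quartiles. In windows of 8 to 16 genes the medians are 21.5, 51 and 11 peaks, and the orange points at 1 to 2 and 3 to 7 genes rest on 2 windows each.

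Gene-rich stretches, taken as 3 or more neighbouring gene-rich windows, numbered 4. Peaks given for a gene in these stretches and windows lay inside it or up to 10 kb away. From 3 to 6 Mb there were 92 peaks over 63 genes, 30.7 per Mb, led by Sfi1 and Osbp2. From 49 to 52 Mb there were 66 peaks over 72 genes, led by Adamts2, a protease that trims procollagen, with 7 peaks inside it or up to 10 kb away. From 58 to 63 Mb there were 112 peaks over 130 genes, led by the Wnt ligand gene Wnt9a and by Specc1 with 5 each. From 72 to 77 Mb there were 117 peaks over 115 genes, led by Abr, a regulator of small GTPases, with 11. The fullest single window ran from 78 to 79 Mb with 48 peaks over 35 genes. It was led by Phf12, a chromatin-associated PHD finger protein, with 6 peaks, and by Unc119 and Flot2 with 5 each. Of the 6 at Phf12, 2 lay in its body, some lay before 78 Mb and some were also counted for Flot2. Next came 94 to 95 Mb with 41 peaks, led by Spag9, a scaffold of JNK signalling, with 5. Of the 5 at Spag9, 1 lay in its body and 1 lay before 94 Mb. Acsf2 and the calcium channel gene Cacna1g followed with 4 each. The window from 3 to 4 Mb held 39.

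Among gene-rich windows, those with fewest peaks per gene held many olfactory receptor genes. The window from 73 to 74 Mb had 34 protein-coding genes and 11 peaks, the one from 58 to 59 Mb had 50 genes and 20 peaks, and the one from 49 to 50 Mb had 32 genes and 19 peaks. Olfactory receptor genes made up 19, 21 and 19 of the genes in these windows. The next in order, from 69 to 70 Mb, had 62 genes, none of them an olfactory receptor, and 37 peaks. With olfactory receptor genes left out of the count, the rank correlation between peaks and genes was 0.845. Among windows of 20 or more peaks, those with most peaks per gene were 81 to 82 Mb with 29 peaks over 2 genes, and 85 to 86 Mb with 33 peaks over 7 genes, where Bcas3 and Tbx2 lie. Next among these came 79 to 80 Mb with 29 peaks over 9 genes, among them Nf1. Windows of fewer peaks could also have many per gene, such as 36 to 37 Mb with 9 peaks over 1 protein-coding gene, Tenm2.

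Gene-poor stretches, 3 or more neighbouring gene-poor windows, numbered 3. From 12 to 16 Mb there were 5 peaks over 2 genes, of which Cobl, an actin nucleator, had 3. From 24 to 29 Mb there were 9 peaks over 5 genes, and no peak lay within 10 kb of Bcl11a, a zinc finger repressor of blood and brain, or of the other 4. From 36 to 40 Mb there were 13 peaks, of which 9 lay in Tenm2, a teneurin of synaptic adhesion and the only protein-coding gene there. Between protein-coding genes, 17 spaces of 500 kb or more covered 23.1 Mb, 25.1% of the length, and held 67 peaks, 4.88% of all, at 2.90 per Mb. Of these spaces 2 held no peak, the 1657 kb between Pom121l12 and Vstm2a and the 1429 kb between Abca13 and Vwc2. The space between Ebf1 and Clint1, of 844 kb, held 12 peaks.

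The longest run without a peak spanned 4137 kb, chr11:12811457-16948768. It lies between Cobl and Fbxo48 and takes in the whole of Egfr, which encodes the epidermal growth factor receptor. Egfr (chr11:16752203-16913907, 162 kb, plus strand) had 0 peaks in its body and 0 within 10 kb. The next runs measured 1591 kb, between Upp1 and Zpbp and touching Abca13 and Vwc2, and 1497 kb, touching Tenm2 and ending before Mat2b. Because the list holds no coverage, an empty run cannot be told apart from one where reads could not be placed. Ebf1, a transcription factor of B cells (chr11:44618100-45008096, 390 kb, plus strand), and Wdpcp, a planar polarity effector (chr11:21571969-21898687, 327 kb, plus strand), were the longest genes with no peak in the body. A peak lay within 1 kb past the end of Ebf1 (chr11:45008198-45008457) and another within 10 kb before its start (chr11:44610901-44611224), while Wdpcp had none within 10 kb.

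Of 1017 protein-coding genes before 95 Mb, 347 had at least 1 peak in the body (34.1%, exact 95% interval 31.2 to 37.1%), beside 29.5% of all protein-coding genes of the mouse. Within 1 kb of an end, 161 had a peak (15.8%, 13.6 to 18.2%), beside 12% of all. With 10 kb added on each side of the body, 664 had a peak (65.3%, 62.3 to 68.2%), beside 50.8% of all. The corresponding shares past 95 Mb were 48.5%, 25.3% and 81.4%, and on the other chromosomes 28.7%, 11.4% and 49.2%. Most genes had few: 670 had none in the body, 190 had 1, 81 had 2, 36 had 3, 16 had 4 and 24 had 5 or more. Density in the body was lower in each longer class of genes, while the share with a peak was higher up to 300 kb. Before 95 Mb, genes under 10 kb had a body peak in 13.02% of 384 cases at 3.60 peaks per 100 kb, and those of 100 to 300 kb in 79.7% of 74 cases at 1.47 per 100 kb. The 18 genes of 300 kb or more had one in 77.8% of cases at 0.937 per 100 kb. In the class of 100 to 300 kb the density was 3.15 past 95 Mb and 0.871 on the other chromosomes.

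**Figure D4:**
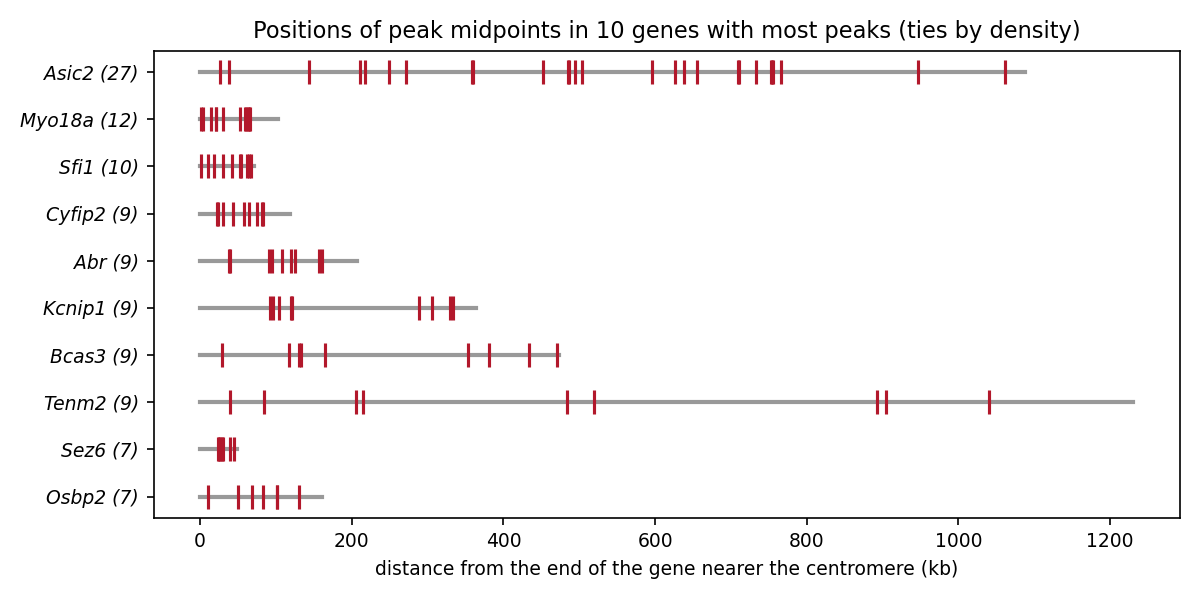
Protein-coding genes before 95 Mb with most peaks in the body, 10 in all after ties were settled by density, which leaves out Acaca with 7: each grey line is a gene, drawn to scale from its end nearer the centromere (horizontal axis, kb), and each red tick is a peak midpoint, with the number of peaks in brackets. Asic2 carries 27 ticks over 1088 kb, and Tenm2 carries 9 over 1230 kb.

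Asic2, an acid-sensing ion channel gene (chr11:80880163-81968396, 1088 kb, minus strand), held the most, with 27. They were spread over the gene, with closer groups such as 4 peaks within 18.96 kb at chr11:81364522-81383480 and 3 peaks between positions 81632768 and 81635265. Their widths ran from 185 bp to 496 bp. Tenm2 is longer, at 1230 kb (chr11:36006656-37237053), and held 9. Kcnip1, a potassium channel partner (364 kb), and Bcas3 (473 kb) held 9 each. Long genes are not the whole list: Cyfip2, a subunit of the WAVE actin regulator (chr11:46193849-46312859, minus strand), held 9 in 119 kb, all between 21.7 kb and 83.1 kb from its end nearer the centromere. Abr held 9 in 207 kb, and Osbp2, an oxysterol-binding protein gene, 7 in 160 kb. Acaca, which encodes acetyl-CoA carboxylase of fatty acid synthesis, also held 7, in 272 kb, tied with Osbp2 and Sez6.

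Myo18a, an unconventional myosin gene (chr11:77763240-77865988, 103 kb, plus strand), held 12. A peak pair stood at its start, at chr11:77763032-77763296 and chr11:77763690-77763902, the first with its midpoint just outside the gene and so not counted in the body. A second group of 6 peaks within 12.8 kb (chr11:77815839-77828615) had a median width of 555.5 bp, beside 272 bp for all peaks before 95 Mb, and included 2 of the 12 widest, of 968 bp and 822 bp. Its neighbour Sez6, a neuronal membrane protein gene (chr11:77930587-77979052, 48.5 kb), held 7, and a run of 8 peaks within 27.2 kb lay in it and just past its end. Sfi1, which encodes a centrin-binding protein of the centriole (chr11:3131850-3203347, 71.5 kb), held 10, with 4 more within 10 kb. Sfi1 lies beside the start of the assembled chromosome, and the widest peak of all before 95 Mb, 3360 bp at chr11:3100530-3103889, lay outside genes before it. Whether repeated sequence has a part in these counts was not tested.

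Per 100 kb of body plus 10 kb on each side, Tbx2, a T-box transcription factor gene (chr11:85832615-85841948, 9.33 kb), stood first at 34.1, from 10 peaks. Before the gene lay 2 peaks, the first of them in the body of the neighbouring Bcas3 (chr11:85823064-85823546). A peak of 453 bp lay on its end nearer the centromere (chr11:85832391-85832843), 2 lay in the last 2 kb of the body, 1 lay on the far end, and 4 followed within 9 kb. With 2 further peaks past these 10 they form a run of 12 over 41.6 kb, chr11:85823064-85864698, the longest run before 95 Mb in which neighbours lie under 10 kb apart. Its neighbour Tbx4, a T-box gene of limb and lung (chr11:85886367-85916097, plus strand), had 3 peaks in its body, the first at its start (chr11:85886296-85886726). Next by density came Chrne, a subunit of the muscle acetylcholine receptor, with 20.5 per 100 kb, and Unc119, a lipid-binding trafficking protein gene, with 19.5. Then followed 4930544D05Rik, Sat2, Tmem95, Kctd11 and Hic1, at 17.3 to 18.8 per 100 kb with 4 or 5 peaks each. Chrne, 4930544D05Rik and Sat2 had no peak in the body, so their rank comes from the flanks. The 4 peaks of 4930544D05Rik are among the 5 of Chrne, and Tmem95 and Kctd11 are ranked on the same 4 peaks. These ranks are therefore not independent. Unc119 (chr11:78343495-78349164, plus strand) had 3 in 5.67 kb, of 220, 497 and 720 bp. The wider 2 lie under 500 bp apart, and with neighbours within 500 bp merged its body held 2 peaks. The density ranking was not repeated on merged peaks. Hic1, a zinc finger repressor (chr11:75161377-75170255, minus strand), had 2 in the body and 1 at its start, of 596 bp (chr11:75170245-75170840).

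Gene groups were read against all 1017 protein-coding genes before 95 Mb, of which 65.3% had a peak inside them or up to 10 kb away, with a median of 1 and a mean of 1.44, and 15.8% had one at an end. Unless stated otherwise, counts for groups take in this 10 kb. Neighbouring genes share peaks, so these counts are not independent.

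In the alpha-globin domain, 10 of 10 genes had a peak and 4 had one at an end, from 6 distinct peaks (median 1, mean 1.40). No midpoint lay in the body of a globin gene. The peaks of Nprl3, a regulator of nutrient signalling whose introns hold the alpha-globin enhancers in mouse, were 324 bp at chr11:32237044-32237367 and 441 bp at chr11:32238468-32238908. Further out, Il9r, the interleukin 9 receptor gene, had a peak at the end that faces Snrnp25 (chr11:32204972-32205258). The same peak lay within 1 kb of an end of Snrnp25, so it counts at an end for both genes. Hba-a1 (chr11:32283672-32284486, plus strand) had 1 peak within 10 kb and Hba-a2 had 2, and these are the theta-globin peaks already described.

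Around the type 2 cytokine genes, 13 of 14 genes had a peak and 3 had one at an end, from 23 distinct peaks (median 2, mean 1.93). Il4, the interleukin 4 gene (chr11:53612460-53618665, minus strand), had none in its body and 2 around it. The first, 201 bp at chr11:53605068-53605268, lay between Il4 and Kif3a, a kinesin motor gene, within 1 kb of an end of Kif3a. The second, 255 bp at chr11:53627919-53628173, lay between Il4 and Il13, the gene of interleukin 13. Kif3a itself held 2, Slc22a5, a carnitine transporter gene, had 3 in or around it, and Il3, the interleukin 3 gene, had 3 outside its body. Irf1, an interferon regulatory factor gene, was the member without a peak.

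Myosin heavy chain genes had a peak in 6 of 7 cases and none at an end (median 1, mean 2.00). Myh3, the embryonic skeletal form, had 5, Myh13 4, and the non-muscle form Myh10 2, while Myh8, the perinatal form, had none. A group listed as fibroblast matrix genes had a peak in 9 of 11 cases and 2 at an end (median 2, mean 2.55). The list is broad and also holds Sgcd, Vtn, Serpinf1 and Serpinf2. Adamts2 had 7 and the collagen gene Col23a1 had 6, in bodies of 205 kb and 294 kb. Sgcd, a sarcoglycan gene of 1018 kb, had 4, and the prolyl hydroxylase gene P4ha2 had 3, none in its body. Col1a1, the main collagen of fibroblasts (chr11:94936224-94953042, 16.8 kb), had 3, and all of them lay in its body. They were 490, 392 and 752 bp wide, at chr11:94936800-94937289, chr11:94939323-94939714 and chr11:94942180-94942931, each above the median width.

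Developmental transcription factors had a peak in 15 of 21 cases and 7 had one at an end (median 1, mean 1.76). Tbx2 and Hic1 led with 10 and 5, followed by Foxn1, the regulator of thymus epithelium, and Tbx4 with 3 each, and Tcf7 also had 3. Otx1, Lhx1, Rel, Tlx3 and Bcl11a were among those with none. Signalling genes had one in 8 of 12 cases and 1 at an end (median 3, mean 3.00). Tenm2 had 10, the guidance ligand gene Slit3 had 6 in 587 kb, Wnt9a had 5 and Igfbp3, an insulin-like growth factor binding protein gene, had 4. The cytokine genes Lif and Osm are neighbours that differed: Lif had 3 peaks, all in its body, and Osm had none. Tumour suppressors and genome maintenance genes had one in 8 of 11 cases and 2 at an end (median 1, mean 1.91). Nf1, the neurofibromin gene (chr11:79339590-79581609, 242 kb, plus strand), had 6 in its body and 8 in all, and Nf2, Brip1 and Rad51d had 3 each. Trp53, the p53 gene (chr11:69580348-69591873, plus strand), had a single peak, of 404 bp, with its midpoint within 1 kb before the start (chr11:69579255-69579658). The same peak overlapped a promoter of the neighbouring gene Wrap53, on the minus strand. Its midpoint lay at position -207 relative to that promoter's annotated start, so the peak is not particular to Trp53.

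Imprinted genes had a peak in 3 of 4 cases and none at an end (median 1.5, mean 2.00). Commd1, a copper metabolism gene that hosts the imprinted Zrsr1 in an intron, had 5, of which 3 lay in its body, and Ddc had 2. Zrsr1 had 1 within 10 kb. Grb10, a signalling adaptor (chr11:11930499-12037428, 107 kb, minus strand), had none. Of the cytosolic ribosomal protein genes, 3 lie before 95 Mb, of which Rpl26 had 3 peaks, with 1 near each end and 1 further out, Rpl23a had 2 and Rps27a none.

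Among the 83 olfactory receptor genes there were 15 with a peak (18.1%), none at an end and 1 in the body (median 0, mean 0.205). Olfr1371 and Olfr1396 had 2 each, and Olfr1377 and Olfr462 had 1. Of 11 chemokine genes 2 did (median 0, mean 0.273), Ccl1 with 2 and Ccl11 with 1. Of 8 Schlafen genes, regulators of RNA in immune cells, 4 did (median 0.5, mean 0.750), with 3 at Slfn2 and 1 each at Slfn3, Slfn4 and Slfn5. Slfn3 and Slfn4 were counted on the same peak, so the group had 5 distinct peaks. Of 5 GABA-A receptor subunit genes, Gabrb2 and Gabrp had 1 each. Short reads can map to several members of a family of similar copies, so the counts for the olfactory receptor, chemokine and Schlafen genes are uncertain.

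**Figure D5:**
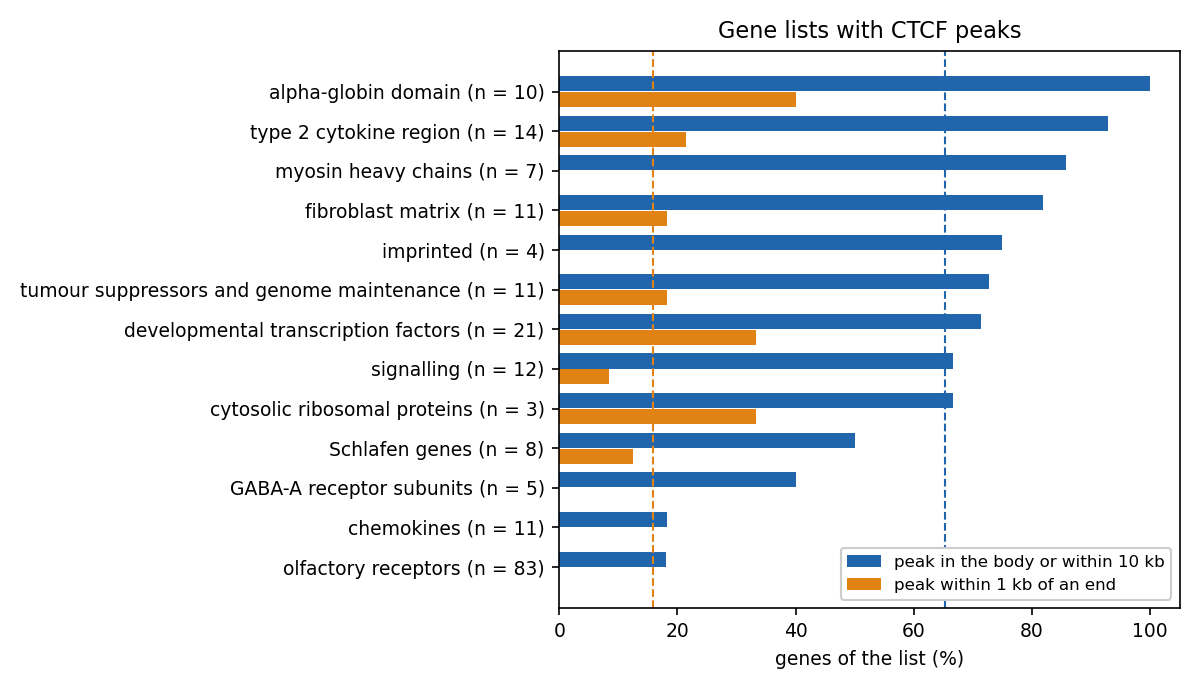
Share of each group's genes (horizontal axis, %) with a CTCF peak inside the gene or up to 10 kb away (blue) and within 1 kb of an end (orange), with the number of genes in brackets; dashed lines mark all 1017 protein-coding genes before 95 Mb, at 65.3% and 15.8%. The alpha-globin domain stands at 100% and 40.0%, and olfactory receptors at 18.1% and 0%. Groups were not matched for gene length, and neighbouring genes share peaks.

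Some peaks fell into runs, and others stood alone. The median distance between neighbouring midpoints before 95 Mb was 24.2 kb (quartiles 7.66 and 63.6 kb), against 11.9 kb past 95 Mb and 36.0 kb on the other chromosomes. Neighbours under 10 kb apart made up 30.1% before 95 Mb (exact 95% interval 27.7 to 32.6%), 45.2% past it and 23.4% elsewhere. Of the 1374 peaks, 698 (50.8%) had no neighbour under 10 kb, 168 pairs and 68 runs of 3 held further peaks, and 27 runs of 4 or more held 136 peaks (9.90%). After the run at Tbx2 came 9 peaks at Sfi1 over 35.4 kb and the 8 at Sez6. Runs of 6 lay in Myo18a and at Unc119 and Foxn1, and the run at Unc119 and Foxn1 covered 16.3 kb with a median width of 510.5 bp. Both runs include neighbours within 500 bp counted as separate peaks. A run of 5 over 14.4 kb stood at Wnt9a with a median width of 221 bp, so runs were made of wide and of narrow peaks.

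Peak widths before 95 Mb had a median of 272 bp (quartiles 219 and 337 bp, range 170 to 3360 bp), against 289 bp past 95 Mb and 260 bp elsewhere. Peaks of 500 bp or more numbered 78 (5.68%), against 9.11% and 3.65%. Within 1 kb of the end of any annotated gene lay 254 peaks (18.5%, 16.5 to 20.6%), elsewhere in a gene body 663 (48.3%, 45.6 to 50.9%) and outside genes 457 (33.3%, 30.8 to 35.8%). The shares past 95 Mb were 16.9%, 55.8% and 27.3%, and on the other chromosomes 16.3%, 48.2% and 35.4%. Median widths in the classes were 286, 271 and 269 bp. Among other kinds of gene before 95 Mb, 72 of 501 long non-coding RNA genes had a peak at an end (14.4%), 23 of 337 pseudogenes (6.82%), 5 of 59 microRNA genes (8.47%) and 4 of 35 transfer RNA genes (11.4%). Beside them stand 161 of 1017 protein-coding genes (15.8%). Shares for the other kinds outside this stretch were not computed.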

How the data were processed

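The deposited file is 1 list of CTCF peak intervals without header, made by the authors by merging the conditions with and without doxycycline. It gives chromosome, start and end, so its unit is a position, with nothing normalised. Per the labels' protocols, Drosophila chromatin was added for normalization. Per the submitters' processing notes, STAR, Picard and MACS2 were used with the builds mm10 and dm6; roles, thresholds, the merging and the use of the added chromatin remain not given in the sources used here. Depth per library is unknown.

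Midpoints placed peaks in genes of NCBI RefSeq for GRCm38.p6, with 21779 protein-coding genes on chromosomes 1 to 19, X and Y after 340 genes below 3 Mb were left out. Of the 1017 protein-coding genes before 95 Mb, 841 had a promoter sequence. The 1 mitochondrial peak was left out. Python 3.11.15, pandas 2.3.3 and scipy 1.17.1 were used, and the counting was tested on simulated data. No hypothesis test was run. Intervals are exact, at 95%. Samples were grouped by their titles. The stretch, the 13 gene lists and the alternatives were chosen with earlier results of these data known.

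Named genes were the 10 with most peaks in the body (ties settled by peaks per 100 kb), the 8 densest among those with at least 4 peaks in the body plus 10 kb, up to 4 per list, up to 3 in each of the 3 fullest windows, the 2 longest without a body peak, those next to the 3 longest empty runs, and Col1a1, Hba-a1, Il4, Trp53, Nf1, Egfr, Ebf1, Grb10 and Tbx2. Other genes named, such as Acaca, Otx1, Osm and Irf1, and genes whose promoter sequence is printed, were chosen after their values were seen. Alternatives changed the distance to a gene end, the use of midpoints, the peak list, the windows, the border and the motif.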

Additional observations from a re-analysis of the deposited data

How the results depend on the processing

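Merging neighbours within 500 bp, or the border at 90 or 85 Mb, left the density within its counting interval (14.4 to 15.0 peaks per Mb). With only peaks of the median width of the whole list or wider, there were 8.24 peaks per Mb, 15.7 in gene-rich and 1.61 in gene-poor windows, and a median spacing of 40.1 kb; fewer peaks enter by construction. Windows of 500 kb gave 29.2 peaks per Mb in gene-rich ones, and all annotated genes in place of protein-coding ones gave 4.56 in gene-poor ones. Without the window around Asic2, an alternative added after seeing the data, gene-poor windows held 2.36 per Mb. The share of peaks at gene ends was 11.6% within 500 bp, 32.5% within 2.5 kb and 11.1% with protein-coding genes only. Adding 10 kb on each side took the protein-coding genes with a peak to 664, and the looser motif matched 48.1% of promoters with a peak. Among 79 named genes, the number of body peaks moved by over 1.5 times for 2 with any overlap, for 26 with the wide peaks and for 44 with the added 10 kb. No paired analysis was possible because the list carries no replicate. Without heights, replicates or depth, none of these values has an error beyond counting.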
